A study of Mus musculus with 30 samples.

Results

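Microglia read nucleotides outside the cell through purinergic receptors, and 10 genes of that system were followed here through development, maternal immune activation and repopulation. They were chosen by name: the ATP-gated channels P2rx4 and P2rx7, the nucleotide receptors P2ry6 and P2ry14, the adenosine receptors Adora1, Adora2a and Adora3, the ectoenzymes Entpd1 and Nt5e, and the adenosine deaminase Ada. Of the 10 genes, 7 had a row in the expression table, with 8 of its 14225 rows in all, because P2rx7 had 2 transcripts. P2rx4, P2ry14 and Ada had no row and were not analysed here.

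RNA came from CD11b+ cells pulled from the whole brain of C57BL/6J mice with magnetic beads. There were 10 groups of 3 libraries. The offspring came from dams that had received saline (Saline) or the viral RNA mimic poly(I:C), which provokes an immune response in the mother (maternal immune activation, MIA), and they were taken at E17, P7, P20 and P60. At P60 each kind of offspring came in 2 forms. CTRL mice had eaten control chow, and MG-REP mice had first eaten chow with PLX5622, an inhibitor of the receptor CSF1R that depletes microglia, and then control chow while the cells returned. Each E17 library pooled a litter and each P7 library several brains, so these are averages over animals, while the older libraries came from 1 brain each. All values are TPM, transcript levels scaled for transcript length and library size.

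ATP leaks from damaged or active cells and opens P2X channels such as P2rx7, which is known for driving the inflammasome in microglia. P2ry6 binds UDP and is known for triggering phagocytosis. Entpd1 (CD39) strips ATP and ADP to AMP, and Nt5e (CD73) turns AMP into adenosine, so that together they change an ATP signal into an adenosine signal. Adenosine then acts on Adora1 and Adora3, which lower cyclic AMP, and on Adora2a, which raises it.

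The results turned mostly on Nt5e, Entpd1 and Adora3, and the starts of these genes are shown so that the members can be placed in the genome. Each sequence is the RefSeq window (GRCm38.p6, the same coordinates as mm10) from 250 bases before to 50 bases after the start, on the + strand. Capitals mark matches to any of 5 motifs, searched on both strands: GAGGAA (the PU.1 core), TGANTCA (AP-1), TGACG (part of the cyclic AMP response element, CRE), GGGCGG (Sp1) and ACGTG (HIF), of which the last can overlap the CRE letters.
Nt5e, chr9:88327359-88327658: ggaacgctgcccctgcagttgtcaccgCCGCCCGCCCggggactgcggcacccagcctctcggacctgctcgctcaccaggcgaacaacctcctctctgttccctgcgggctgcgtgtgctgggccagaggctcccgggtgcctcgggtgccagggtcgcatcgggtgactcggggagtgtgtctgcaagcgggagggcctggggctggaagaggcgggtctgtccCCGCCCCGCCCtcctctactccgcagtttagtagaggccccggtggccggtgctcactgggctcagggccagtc
Entpd1, chr19:40659520-40659819: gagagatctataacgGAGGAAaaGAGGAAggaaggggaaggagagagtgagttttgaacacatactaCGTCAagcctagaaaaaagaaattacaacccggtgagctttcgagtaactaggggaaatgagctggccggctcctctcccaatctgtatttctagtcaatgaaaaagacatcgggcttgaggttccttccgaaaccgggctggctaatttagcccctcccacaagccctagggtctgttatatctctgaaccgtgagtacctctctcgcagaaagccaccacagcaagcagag
Adora3, chr3:105904171-105904470: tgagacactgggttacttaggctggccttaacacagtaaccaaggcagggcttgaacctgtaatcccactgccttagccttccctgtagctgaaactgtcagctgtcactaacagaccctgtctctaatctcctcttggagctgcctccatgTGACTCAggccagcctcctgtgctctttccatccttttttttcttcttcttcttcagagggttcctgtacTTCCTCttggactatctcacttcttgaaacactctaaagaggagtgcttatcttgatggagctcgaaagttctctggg
The Nt5e window held 4 Sp1 matches, in 2 overlapping pairs, and had a GC content of 71%. The Nt5e transcript of the table starts upstream of this window in GENCODE M21, at position 88327197. The Entpd1 window, at the start of the transcript in the table, held 2 PU.1 cores and 1 CRE match with a GC content of 48.7%. The Adora3 window held 1 PU.1 core and 1 AP-1 match with a GC content of 48.3%. Of 32851 windows of this length over all genes, 28.3% held the PU.1 core, 7.81% AP-1, 20.8% the CRE letters, 35.7% Sp1 and 19.6% the HIF letters. These matches describe letters, and no binding was measured.

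On GRCm38.p6 the 7 genes lie apart: P2ry6 on chromosome 7 (100937630 to 100975498), P2rx7 on chromosome 5 (122643927 to 122692336), Entpd1 on chromosome 19 (40612366 to 40741602), Nt5e on chromosome 9 (88327609 to 88372089), Adora1 on chromosome 1 (134199215 to 134235457), Adora2a on chromosome 10 (75316877 to 75334792) and Adora3 on chromosome 3 (105904421 to 105908928). The libraries did not keep strand. In GENCODE M21, exons of Adora3 share 670 bases with Tmigd3 on the same strand, and exons of Adora1 share 1162 bases with Mybph on the opposite strand, so reads there cannot be assigned to one gene with certainty. The 2 P2rx7 rows were NM_001038887, with 4 exons and 712 bases, and NM_001284402, with 13 exons and 1848 bases, and they share 238 bases. RefSeq lists 5 coding transcripts of P2rx7, so the 2 rows do not give the level of the whole gene. It lists 5 of Adora1, 3 of Adora2a and 2 of Entpd1, each with 1 row here, so these rows too may miss part of their gene.

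The cells carried the microglial markers C1qa, Csf1r, Cx3cr1, Fcrls, P2ry12 and Tmem119, whose TPM summed to between 12177 and 36590. No 2 libraries were identical. Several libraries stood apart. Saline MG-REP library 2 had 2754 TPM of the neutrophil gene S100a8, against 15.2 and 177 in libraries 1 and 3, and E17 MIA library 1 had a neuronal marker sum of 870 TPM against 107 to 225 in the other E17 libraries. Choroid plexus markers reached 12249 TPM in E17 MIA library 3. In P7 MIA libraries 2 and 3 they had 10047 and 10080 TPM, against 1291 to 3423 TPM in P7 Saline. Of the CTRL libraries at P60, library 1 of each group was high in Xist (124 and 140 TPM) and libraries 2 and 3 in Y-linked genes (268 to 318 TPM), whereas all 6 MG-REP libraries were high in Xist (159 to 174 TPM), so that MG-REP and CTRL also differed in sex. All 6 libraries of P20 were high in Xist (172 to 193 TPM), with 0.27 to 0.59 TPM of Y-linked genes. The E17 libraries held 180 to 258 TPM of Y-linked genes beside 102 to 127 TPM of Xist. The P7 libraries held 0.1 to 285 TPM of Y-linked genes beside 80.1 to 222 TPM of Xist, so P7 and P20 also differed in sex. Each library was also left out in turn, and lost calls are given as values or as counts of settings.

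P2ry6 was by far the most abundant member. Averaged over the 30 libraries it reached 317 TPM, above 96.9% of all rows, and no library lay under 188 or over 434 TPM. Adora3 (31.5 TPM), Adora2a (23.0 TPM) and Entpd1 (12.1 TPM) followed, in the middle of all rows. Nt5e averaged 6.91 TPM, carried by 1 group, and P2rx7 NM_001038887 averaged 4.86 TPM. The lowest levels were those of Adora1 (1.04 TPM) and P2rx7 NM_001284402 (0.63 TPM). By the steps between low values, 1 read on a transcript of 1000 bases was worth 0.211 to 0.354 TPM, and a longer transcript gets more reads for the same TPM.

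**Figure D1:**
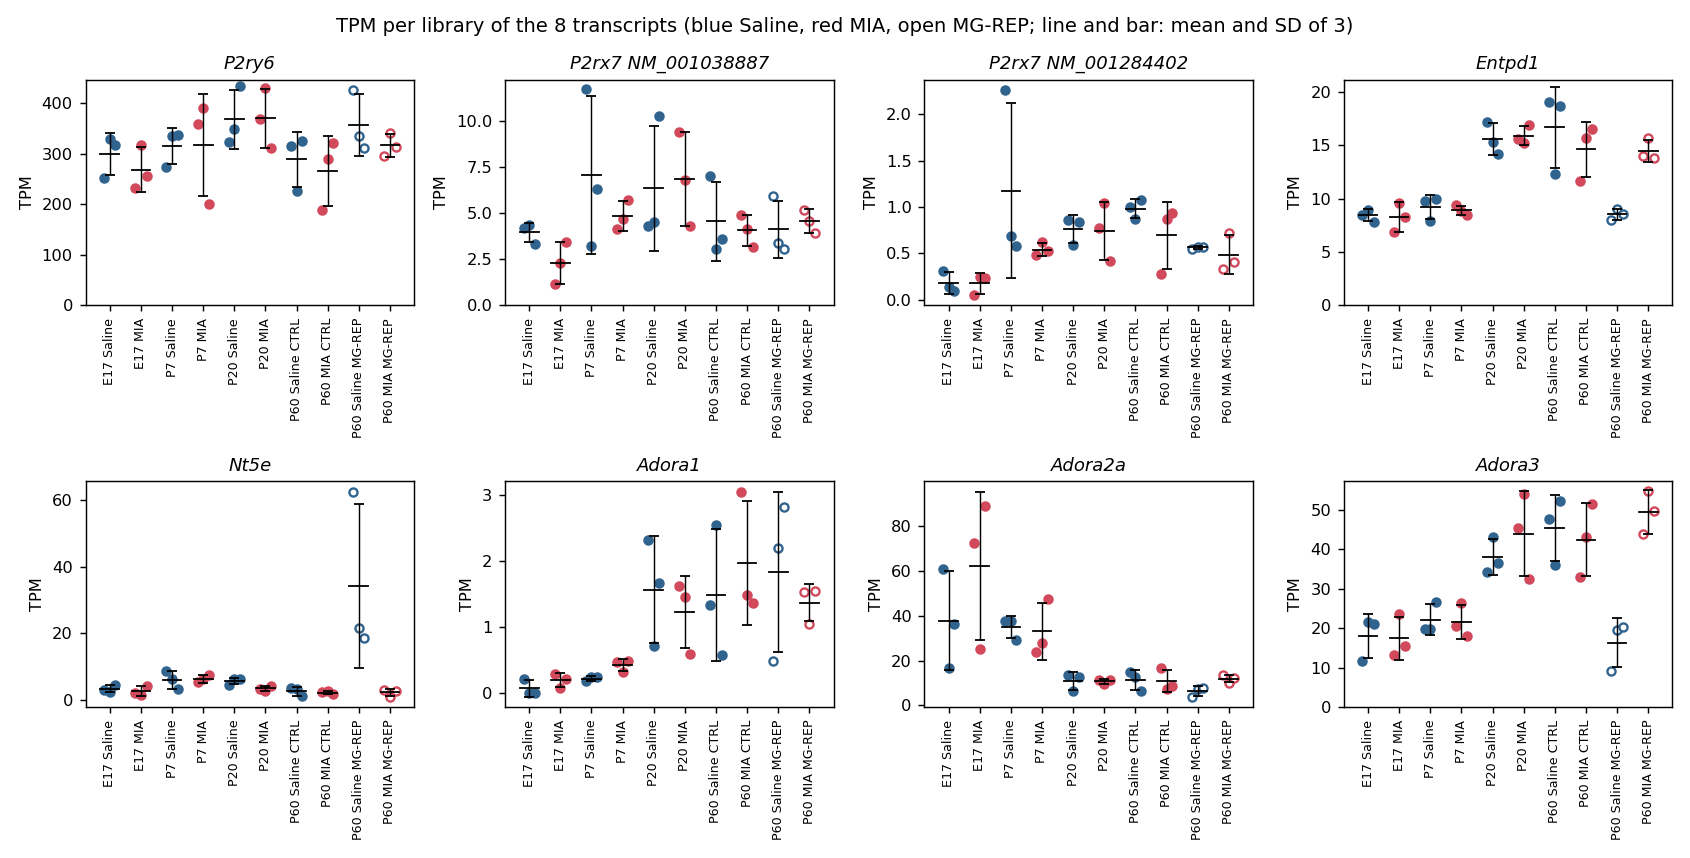
TPM of the 8 transcripts in each of the 30 libraries (points; blue Saline, red MIA, open symbols MG-REP), with the mean and SD of 3 as line and bar; axes are linear. Nt5e stands high in the 3 Saline MG-REP libraries (18.6 to 62.6 TPM) and at or under 8.72 TPM in all others, while P2ry6 stays between 188 and 434 TPM.

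The first question was whether MIA changed these genes at any age. It did so for 0 of 8 members at E17, at P7, at P20 and at P60 on control chow, by limma on log2(TPM + 1) with Benjamini-Hochberg adjustment over all 14225 rows at 0.05. In each of these 4 comparisons 0 of 14225 rows (0%) passed, and 585, 335, 457 and 256 rows had an unadjusted p under 0.05. Before adjustment 1 member value of the 4 ages passed, that of P2rx7 NM_001284402 at P7, with a log2 fold change of -0.42 (SE 0.20), which did not pass after adjustment. It had 2.26, 0.69 and 0.58 TPM in Saline and 0.48, 0.62 and 0.52 TPM in MIA, so Saline library 1 alone stood apart and the other libraries overlapped.

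The intervals show what size of MIA effect these libraries could have missed. The largest estimate was that of Adora2a, the cyclic AMP-raising receptor, at E17, with a log2 fold change of 0.70 (95% interval -0.22 to 1.61). Its libraries there ran from 16.5 to 60.5 TPM in Saline and from 25.0 to 88.6 TPM in MIA. P2rx7 NM_001038887 at E17 had -0.63 (-1.38 to 0.12). Nt5e at P20 had -0.60 (-1.41 to 0.22), with 4.66, 6.24 and 6.39 TPM in Saline and 3.44, 2.77 and 4.24 TPM in MIA. Those P20 groups did not overlap, yet the adjusted p was 1. For Entpd1 the interval was narrow at every age, with bounds at P20 of -0.31 and 0.36.

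Among the other purine genes (P2X, P2Y and adenosine receptors, ectoenzymes, enzymes inside the cell, and release and transport proteins), 47 of 60 had a row, with 50 rows, and 0 of 50 passed for MIA against Saline at any of the 4 ages. The median log2 fold change of these 50 rows at E17 was 0.09, beside 0.10 over all rows and -0.04 over the 8 member rows.

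Age, averaged over Saline and MIA, was the next comparison. The ectoenzyme Entpd1 and the adenosine receptors Adora3 and Adora1 rose between P7 and P20, and Adora2a fell over the same interval, while P2ry6 passed at no step. Of the 8 members, 4 passed from P7 to P20, 3 higher and 1 lower, where 50.7% of all rows passed, 21.6% higher and 29.1% lower. From E17 to P7, 2 of 8 passed, both higher, beside 10.8% of all rows (6.76% higher and 4.03% lower). From P20 to P60 on control chow 0 of 8 passed, beside 12% of all rows (4.24% higher and 7.71% lower), and 2 members had an unadjusted p under 0.05 there. The share of members from P7 to P20 was thus close to that of all rows. Sex also differed between the libraries of P7 and P20, and its part in this step was not tested further.

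Among the receptors for nucleotides, P2ry6 had median levels of 287, 336, 359 and 302 TPM at E17, P7, P20 and P60 CTRL, and the 6 libraries of each age overlapped those of every other. Its estimate from P20 to P60 was -0.43 (SE 0.15, adjusted p = 0.0757). P2rx7 NM_001284402 had 0.05 to 0.31 TPM in the 6 E17 libraries and 0.48 to 2.26 TPM in the 6 P7 libraries, which did not overlap (log2 fold change 0.60, SE 0.14, adjusted p = 0.00686). On a scale with 1 added to each TPM this understates a ratio of means of 4.81. P2rx7 NM_001038887 gave 0.72 (SE 0.26, adjusted p = 0.0774) for the same step, from 1.18 to 4.33 TPM at E17 and from 3.21 to 11.7 TPM at P7, where the ages overlapped.

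Entpd1, the first enzyme of ATP breakdown, stepped up once. Its 6 libraries lay between 6.84 and 9.63 TPM at E17 and between 7.94 and 10 TPM at P7. At P20 all 6 lay between 14.2 and 17.2 TPM, above every younger library. The change from P7 to P20 was 0.74 (SE 0.11, adjusted p = 1.04e-05), a ratio of 1.74. Between P20 and P60 CTRL the estimate was -0.03 (-0.26 to 0.21).

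Nt5e, the enzyme that makes adenosine, did not follow Entpd1. It had 1.57 to 4.63 TPM at E17, 3.29 to 8.72 TPM at P7, 2.77 to 6.39 TPM at P20 and 1.09 to 3.57 TPM at P60 CTRL, and neighbouring ages overlapped. Its rise from E17 to P7 (0.87, SE 0.28, adjusted p = 0.0465) sat at the threshold. It did not pass in 16 of 23 other settings or library sets. It was 0.73 (adjusted p = 0.134) without Saline library 1 of P7 and 0.47 (adjusted p = 0.572) with the astrocyte sum as a covariate. From P20 to P60 it had -0.71 (SE 0.28, adjusted p = 0.102), a step over which sex also differed between the libraries.

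The adenosine receptors moved in opposite directions. Adora3 lay between 17.9 and 26.7 TPM in the 6 P7 libraries and between 32.6 and 54.0 TPM in the 6 P20 libraries, without overlap (0.87, SE 0.19, adjusted p = 6.03e-04). Adora1 was near 0 at both younger ages, with 0 to 0.29 TPM at E17 and 0.18 to 0.49 TPM at P7, and reached 0.60 to 2.32 TPM at P20 (0.82, SE 0.21, adjusted p = 0.00277). Adora2a had 23.6 to 47.5 TPM at P7 and fell to 6.43 to 13.7 TPM at P20, also without overlap (log2 fold change -1.55, SE 0.31, adjusted p = 2.19e-04). Adora2a was most variable at E17, where the 6 libraries ran from 16.5 to 88.6 TPM.

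From E17 to P60 CTRL as a whole, 5 of 8 members passed, beside 61.7% of all rows (27.5% higher and 34.2% lower). The 4 that rose were Entpd1 (0.82, SE 0.11), Adora3 (1.29, SE 0.19), Adora1 (1.205, SE 0.21) and P2rx7 NM_001284402 (0.63, SE 0.14), with adjusted p values of 1.40e-06, 3.75e-06, 3.58e-05 and 5.22e-04. Adora2a fell by 1.92 on the log2 scale (SE 0.31, adjusted p = 1.09e-05), a ratio of means of 0.223.

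**Figure D2:**
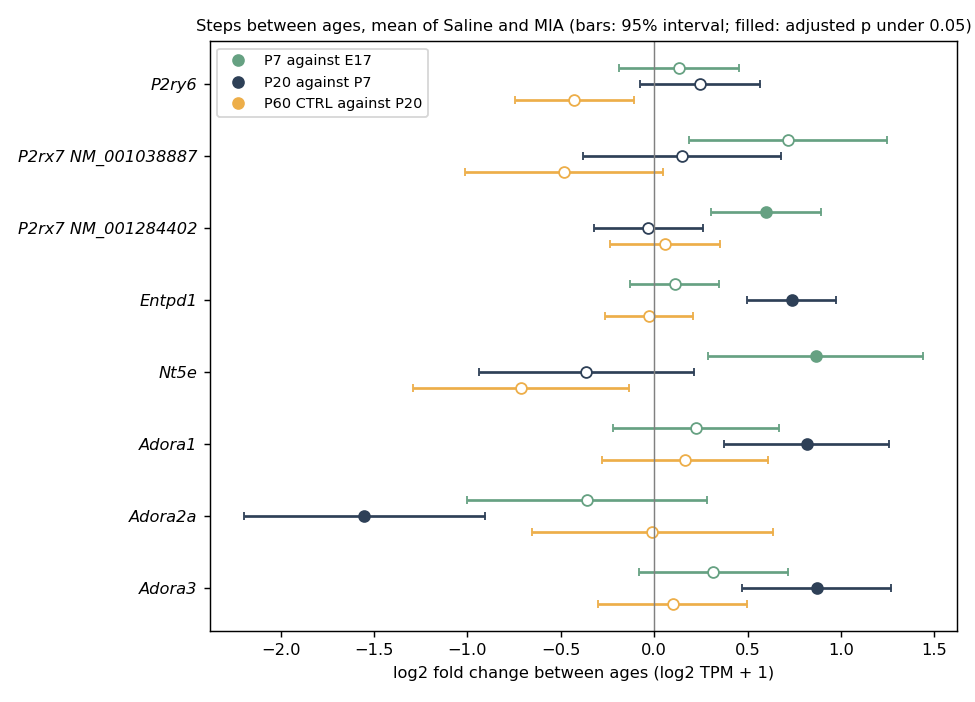
Log2 fold changes of the 8 transcripts for each step between ages, averaged over Saline and MIA, with 95% intervals (x axis: difference of mean log2(TPM + 1); filled symbols: adjusted p under 0.05). Entpd1, Adora1 and Adora3 rose and Adora2a fell from P7 to P20 (0.74, 0.82, 0.87 and -1.55), and no transcript passed from P20 to P60.

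Of the 50 rows of other purine genes, 36 (72%) passed from E17 to P60 CTRL, 21 higher and 15 lower, where 61.7% of all rows did. All 4 P2Y rows rose, among them P2ry12 (1.44, SE 0.17) and P2ry13 (1.54, SE 0.18), the ADP receptors of resting microglia. The largest rises among rows without overlap were Panx2 (3.88, SE 0.35), a pannexin, the ectoenzyme Enpp4 (2.13, SE 0.18) and the 5′-nucleotidase Nt5c1a (2.01, SE 0.29). The largest falls were the ectoenzyme Enpp3 (-2.68, SE 0.27), the purine salvage enzyme Aprt (-1.88, SE 0.14) and the AMP deaminase Ampd1 (-1.86, SE 0.18). The median over the 50 rows was 0.07, beside -0.06 over all rows and 0.51 over the 8 members.

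Markers of other brain cells moved with some of these members. A bead isolate holds a few cells of other types, and in bulk RNA fewer cells of a type and less RNA per cell cannot be told apart. The summed TPM of 4 of 6 endothelial marker genes with a row had medians of 1291 at E17, 1257 at P7, 654 at P20 and 724 at P60 CTRL. In the 6 E17 libraries, in the order Saline 1 to 3 and MIA 1 to 3, Adora2a had 60.5, 16.5, 36.5, 72.5, 25.0 and 88.6 TPM, and the endothelial sum was 1685, 536, 1043, 1538, 761 and 2591 TPM. Taking each library as its deviation from the mean of its group, Adora2a and the endothelial sum had Pearson's r = 0.94 and Spearman's rho = 0.92 over the 30 libraries (permutation p = 6.00e-05 for each, adjusted p = 0.00144 and 9.60e-04 over 80 relations of members and marker lists). Without the 2 libraries farthest from the median, r was 0.91. The relation was not particular to endothelial markers. Adora2a also rose with the sums of astrocytes (r = 0.84), meningeal fibroblasts (0.81), choroid plexus (0.66) and neurons (0.63). It fell with the sums of microglia (-0.77) and border macrophages (-0.70). With the endothelial sum as a covariate, the change of Adora2a from P7 to P20 was -0.46 (adjusted p = 0.0151) in place of -1.55.

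Adora1 moved with markers of several other cell types, among them astrocytes. All 6 astrocyte markers had a row, and their sum had medians of 6.90 TPM at E17, 89.7 at P7, 102 at P20 and 172 at P60 CTRL. Within groups r was 0.73 and rho 0.76 (permutation p = 8.00e-05 and 1e-05, the latter the smallest that 100000 permutations can give; adjusted p = 0.00144 and 4.00e-04), and r was 0.79 without the 2 farthest libraries. With the astrocyte sum as a covariate the change of Adora1 from P7 to P20 was 0.64 (adjusted p = 0.00148), and that from E17 to P60 was -0.52 (adjusted p = 0.287) in place of 1.205. The astrocyte sums of E17 (3.32 to 21.0 TPM) did not overlap those of any later age. Adora3 and P2ry6 instead moved with the microglial marker sum (r = 0.76 and 0.80, rho = 0.80 and 0.73; adjusted permutation p = 8.00e-04 and 0.00427 for r, and 4.00e-04 and 0.00975 for rho). Without the 2 farthest libraries, r was 0.74 and 0.76 for Adora3 and P2ry6. Entpd1 had r = 0.64 and rho = 0.55 with the microglial sum (adjusted permutation p = 0.0376 and 0.0561). Nt5e had r = -0.44 and rho = -0.50 with it (adjusted permutation p = 0.0531 and 0.0406). P2ry6 also rose with border macrophages (r = 0.58). It fell with neurons (-0.68), oligodendrocytes (-0.72), astrocytes (-0.66), endothelial cells (-0.63) and meningeal fibroblasts (-0.52). Adora1 also moved with oligodendrocyte markers (r = 0.75, rho = 0.64) and neuronal markers (r = 0.65, rho = 0.68). The sum of the 4 oligodendrocyte markers with a row had medians of 39.1 TPM at E17, 154 at P7, 1270 at P20 and 477 at P60 CTRL. It thus rose most from P7 to P20, the step at which Adora1 rose. No fit used the oligodendrocyte sum alone as a covariate. For Adora1, r was 0.62 with meningeal fibroblasts and 0.55 with endothelial cells, and -0.45 with microglia and -0.48 with border macrophages. These relations were picked from the 80 after all values were seen, and whether the other cells or the microglia carried these transcripts was not tested.

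**Figure D3:**
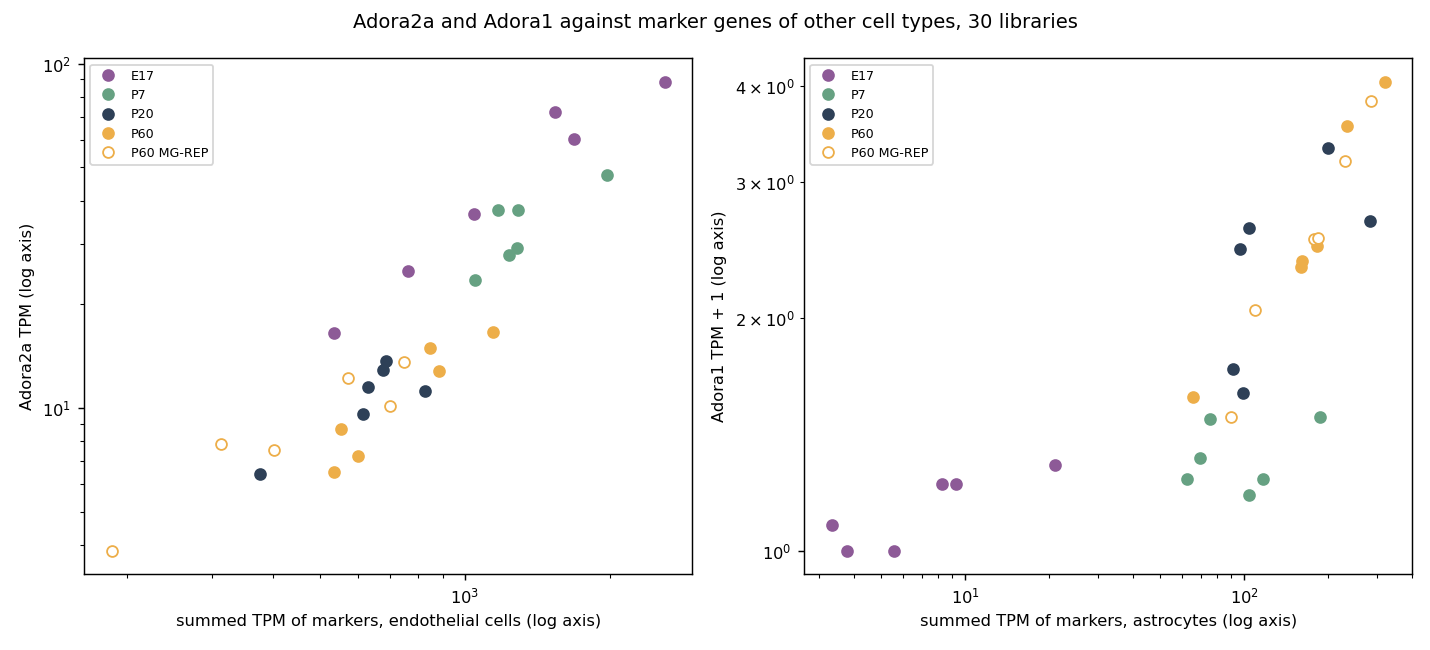
Left, Adora2a TPM against the summed TPM of endothelial markers; right, Adora1 TPM + 1 against the summed TPM of astrocyte markers; each point is 1 of 30 libraries, coloured by age, open for MG-REP, on log axes. The E17 libraries span 16.5 to 88.6 TPM of Adora2a along with 536 to 2591 TPM of endothelial markers.

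The last question was what repopulation did to these genes, and whether it did the same in Saline and MIA offspring. In Saline offspring the mean of Nt5e rose about 13-fold, or 7.62-fold without the highest library, and Entpd1 and Adora3 fell to the levels of E17 and P7. In MIA offspring none of these 3 genes passed. Of the 8 members, 3 passed for MG-REP against CTRL in Saline offspring, 1 higher and 2 lower, beside 26.7% of all rows (11.9% higher and 14.9% lower). In MIA offspring 0 of 8 passed, and 0 had an unadjusted p under 0.05, beside 79 of 14225 rows (0.555%).

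Nt5e had 3.57, 3.23 and 1.09 TPM in Saline CTRL and 62.6, 21.5 and 18.6 TPM in Saline MG-REP. The groups were far apart, and library 1 stood highest. In MIA offspring it had 2.30, 2.56 and 1.89 TPM in CTRL and 3.00, 0.96 and 2.85 TPM in MG-REP, where the groups overlapped. Repopulation changed it by 3.15 on the log2 scale (SE 0.39, adjusted p = 1.36e-06) in Saline and by -0.06 (95% interval -0.87 to 0.76) in MIA offspring. The difference between the effects was itself tested, at -3.20 (SE 0.56, adjusted p = 3.86e-04). Without Saline MG-REP library 1 the Saline effect was 2.61 (adjusted p = 1.46e-05).

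Entpd1 had 19.0, 12.3 and 18.7 TPM in Saline CTRL and 8.04, 9.03 and 8.56 TPM in Saline MG-REP, so every repopulated library lay below every control. In MIA offspring CTRL had 11.7, 15.7 and 16.6 TPM and MG-REP 13.98, 15.7 and 13.9 TPM. The change was -0.87 (SE 0.16, adjusted p = 2.41e-04) in Saline offspring, and in MIA offspring its interval ran from -0.33 to 0.33. The difference of the effects was 0.87 (SE 0.23, adjusted p = 0.0151), and it did not pass in 6 of 24 other settings, among them median-ratio scaling (adjusted p = 0.0798) and the omission of Saline CTRL library 1 (0.0519), Saline CTRL library 3 (0.0511) or MIA CTRL library 1 (0.0523).

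Adora3 had 47.7, 36.1 and 52.2 TPM in Saline CTRL and 9.17, 19.5 and 20.2 TPM in Saline MG-REP, again without overlap. In MIA offspring it had 33.0, 43.0 and 51.4 TPM in CTRL and 43.9, 54.8 and 49.6 TPM in MG-REP. The change was -1.48 (SE 0.27, adjusted p = 2.06e-04) in Saline and 0.23 (-0.33 to 0.80) in MIA offspring, with a difference of 1.71 (SE 0.39, adjusted p = 0.00454). For the difference of the effects, 3 of 8 members passed, 2 higher and 1 lower in MIA offspring, beside 10.5% of all rows (4.42% higher and 6.09% lower).

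The other members did not pass. P2ry6 had 311 to 426 TPM in Saline MG-REP and 227 to 325 TPM in Saline CTRL (0.31, -0.14 to 0.76). Adora2a had 3.85, 7.53 and 7.88 TPM in Saline MG-REP against 15.0, 12.8 and 6.53 TPM in Saline CTRL (-0.72, -1.64 to 0.19). P2rx7 NM_001284402 was at 0.55, 0.57 and 0.57 TPM in Saline MG-REP, below the 0.87 to 1.07 TPM of Saline CTRL, with an adjusted p of 0.233. Adora1 (0.16, -0.47 to 0.79) and P2rx7 NM_001038887 (-0.10, -0.85 to 0.65) had estimates near 0 with wide intervals.

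**Figure D4:**
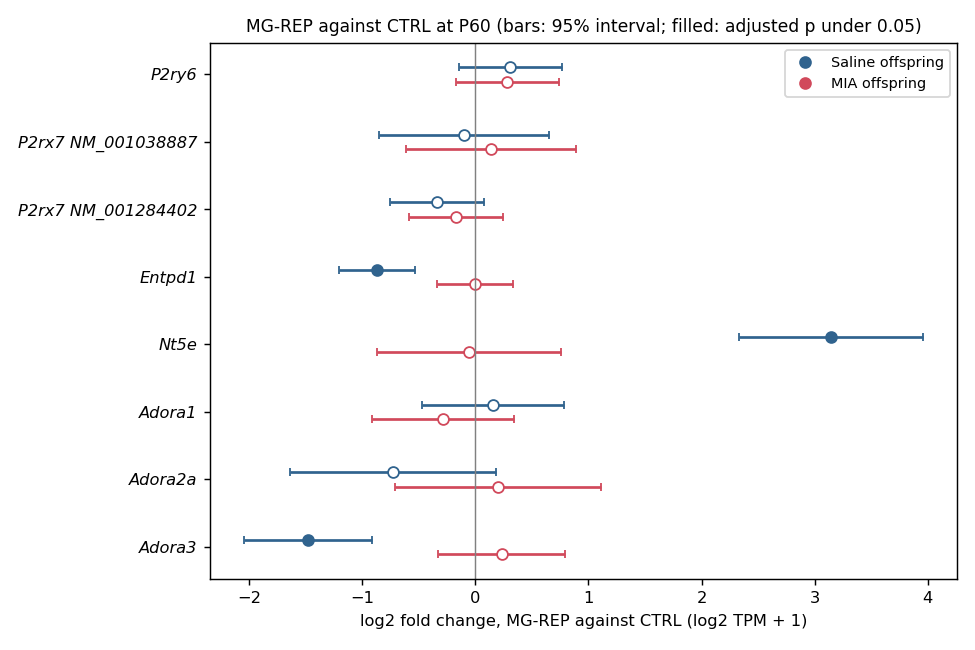
Log2 fold changes of MG-REP against CTRL at P60 for the 8 transcripts in Saline (blue) and MIA (red) offspring with 95% intervals (x axis: difference of mean log2(TPM + 1); filled symbols: adjusted p under 0.05). Nt5e (3.15), Entpd1 (-0.87) and Adora3 (-1.48) changed in Saline offspring, and no transcript passed in MIA offspring.

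Among MG-REP mice, MIA and Saline offspring could be compared directly, in libraries that were all high in Xist. Of the 8 members, 3 passed, beside 22% of all rows (10.9% higher and 11% lower). Nt5e was lower in MIA (-3.29, SE 0.39, adjusted p = 1.18e-06), and Entpd1 (0.70, SE 0.16, adjusted p = 0.00274) and Adora3 (1.61, SE 0.27, adjusted p = 1.13e-04) were higher. This comparison uses the same Saline MG-REP libraries as the one before and is not separate evidence. With only the P60 libraries high in Xist, which leaves 1 CTRL library in each group and assumes that it varies like the other groups, MG-REP against CTRL in Saline offspring gave 2.73 for Nt5e (adjusted p = 0.00244), -1.07 for Entpd1 (0.00114) and -1.57 for Adora3 (0.0109). The median of all rows was itself shifted, to -0.14 for MG-REP against CTRL in Saline offspring and 0.12 for MIA against Saline among MG-REP, and these shifts were -0.05 and 0.05 after median-ratio scaling. The share of higher rows among those that passed changed with it, from 44.3% to 57.5% in the former comparison, while Nt5e (3.30), Entpd1 (-0.75) and Adora3 (-1.36) kept their directions.

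Markers of other cells stood beside these changes. The sum of the 6 border macrophage markers was 1320, 687 and 689 TPM in Saline MG-REP libraries 1 to 3. It was 568, 458 and 422 TPM in Saline CTRL libraries 1 to 3 and 267 to 398 TPM in MIA MG-REP. Pf4, 1 of the 6 markers, made up 901, 422 and 408 TPM of it in Saline MG-REP, and 156, 133 and 122 TPM in Saline CTRL. The rest of the sum overlapped between these groups, so the higher sum in Saline MG-REP than in Saline CTRL lay in Pf4. Among the 3 Saline MG-REP libraries, that with most Nt5e (62.6 TPM) had the most Pf4 and the highest sum. In the P7 libraries the sum was 1029 to 2068 TPM and Pf4 248 to 710 TPM, while Nt5e had 3.29 to 8.72 TPM. Over deviations from group means in all 30 libraries, most of which had low Nt5e, Nt5e and the border macrophage sum had r = -0.01 and rho = -0.05 (permutation p = 0.96 and 0.845; adjusted p = 0.96 and 0.867). With that sum as a covariate Nt5e in Saline offspring was 3.16 (adjusted p = 2.89e-05), Entpd1 -0.96 (adjusted p = 7.79e-04) and Adora3 -1.57 (adjusted p = 0.00124). The slope of such a covariate comes from the deviations within groups, where Nt5e had r = -0.01. This fit therefore could not decide what part border macrophages had in the Nt5e change between groups. The microglial marker sum was 25446 to 36590 TPM in Saline CTRL, 18104 to 19898 TPM in Saline MG-REP and 28078 to 31192 TPM in MIA MG-REP. With the neutrophil and monocyte sum as a covariate, which was 83.3, 3284 and 264 TPM in Saline MG-REP, the 3 values were 3.08, -0.86 and -1.41, and all 3 passed. The part of these other cells, and of sex, in the changes was not tested further.

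**Figure D5:**
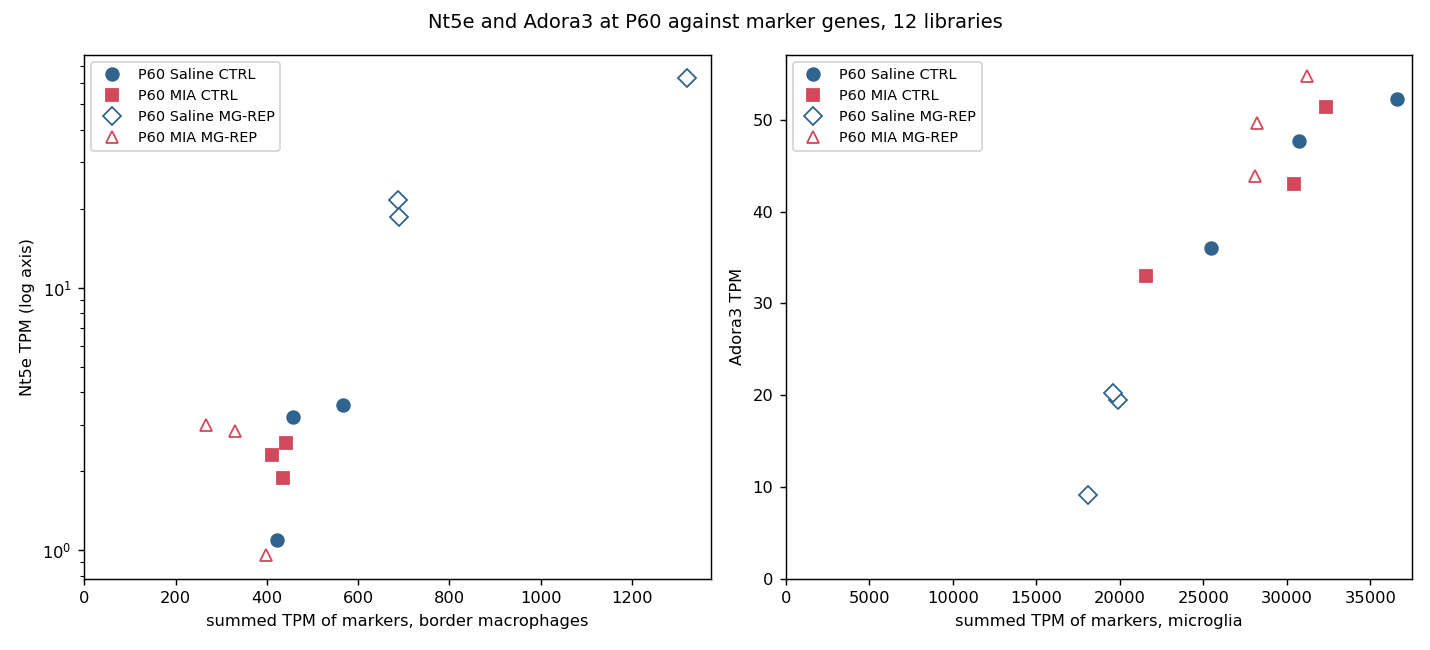
Left, Nt5e TPM (log axis) against the summed TPM of border macrophage markers; right, Adora3 TPM against the summed TPM of microglial markers; each point is 1 of the 12 libraries of P60 (filled CTRL, open MG-REP; blue Saline, red MIA). The 3 Saline MG-REP libraries lie apart from the other 9 in both, at 18.6 to 62.6 TPM of Nt5e and 9.17 to 20.2 TPM of Adora3.

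Of the 50 rows of other purine genes, 12 (24%) passed in Saline offspring, 6 higher and 6 lower, close to the 26.7% of all rows, and in MIA offspring 0 passed. The 3 receptors that passed were lower: P2ry12 had 609, 950 and 926 TPM in Saline MG-REP against 3422 to 4721 TPM in Saline CTRL (-2.28, SE 0.24, adjusted p = 7.22e-08), P2ry13 had 357 to 403 against 1279 to 1695 TPM (-1.92, SE 0.25, adjusted p = 3.04e-06), and P2rx1 had 6.56 to 7.92 against 18.5 to 22.8 TPM (-1.46, SE 0.16, adjusted p = 1.48e-07). P2ry12 is also one of the microglial markers. Enzymes inside the cell that passed, 4 of 18 rows, were all higher. Dck, the deoxycytidine kinase, had 139, 109 and 103 TPM against 23.1 to 31.0 TPM in Saline CTRL (2.12, SE 0.15, adjusted p = 1.10e-10). Aprt, which salvages adenine, had 389, 206 and 190 TPM against 67.0 to 77.0 TPM (1.77, SE 0.20, adjusted p = 3.81e-07). The ectoenzyme Bst1, which acts on NAD, had 6.55, 11.4 and 4.10 TPM against 1.53 to 2.81 TPM (1.34, SE 0.33, adjusted p = 0.00377), while the ectoenzymes Cd38 (-1.16, SE 0.24) and Alpl (-0.75, SE 0.23) were lower. Of the transporters, Slc28a2 (0.47, SE 0.13) was higher and 1 row of Slc29a1 (-0.59, SE 0.20) lower. Slc28a2 was low in both groups, with 1.12 to 1.60 TPM in Saline MG-REP against 0.63 to 0.81 TPM in Saline CTRL.

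For the difference of the MG-REP effects, 6 of the 50 rows (12%) passed, close to the 10.5% of all rows. P2ry12 (2.08, SE 0.33), P2ry13 (1.83, SE 0.36) and P2rx1 (1.00, SE 0.22) had a higher log2 change in MIA than in Saline offspring, and Dck (-1.86, SE 0.21), Aprt (-1.66, SE 0.29) and the nucleoside transporter Slc28a2 (-0.63, SE 0.18) had a lower one. Adjusted p values ran from 1.25e-06 for Dck to 0.0223 for Slc28a2. The median difference was 0.01 over the 50 rows, 0.04 over all rows and 0.20 over the 8 members.

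The order of the 10 groups shows the same steps within each gene. Nt5e was highest in Saline MG-REP (34.2 ± 24.6 TPM, SD, n = 3), which did not overlap the next group, P7 MIA (6.39 ± 1.17 TPM), and the next 3 groups overlapped each other. Adora3 was highest in MIA MG-REP (49.4 ± 5.46 TPM) and lowest in Saline MG-REP (16.3 ± 6.18 TPM). Its upper 5 groups, both groups of P20, both CTRL groups and MIA MG-REP, overlapped their neighbours, and a gap set them off from the lower 5, down to Saline MG-REP. Entpd1 split the same way, into 5 groups from 16.7 ± 3.79 TPM (Saline CTRL) to 14.5 ± 1.01 TPM (MIA MG-REP) and 5 from 9.23 ± 1.13 TPM (P7 Saline) down to 8.25 ± 1.40 TPM (E17 MIA), among them Saline MG-REP at 8.54 ± 0.50 TPM. Adora2a was lowest in Saline MG-REP (6.42 ± 2.23 TPM), where the endothelial sum was lowest too, at 186 to 403 TPM against 536 to 882 TPM in Saline CTRL and 572 to 749 TPM in MIA MG-REP. For P2ry6 every group overlapped the next, from 370 ± 58.5 TPM (P20 MIA) to 266 ± 69.4 TPM (MIA CTRL).

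Profiles over the 30 libraries were compared by Pearson's r of log2(TPM + 1) as a description. Entpd1 and Adora3 were the most alike members (r = 0.89), and Nt5e ran against both (-0.42 and -0.56). Among all rows with a mean of at least 1 TPM, Entpd1 was most like Rhob (0.96), the phagocytic receptor kinase Mertk (0.95) and Zfp715 (0.95). Adora3 was most like Smap2 (0.95), Il16 (0.95) and Rtn4rl1 (0.95), and Nt5e most like Htra4 (0.87), Metrnl (0.86) and Qpct (0.86). Adora2a was most like Pcdh18 (0.98), Agrn (0.97) and Armcx4 (0.97), and Adora1 most like Dlgap3 (0.95), Epb41l1 (0.95) and Nrip3 (0.95). P2ry6 was most like Fermt3 (0.87), Fam78a (0.82) and Was (0.79), and P2rx7 NM_001038887 most like Irf1 (0.71), 1700001L05Rik (0.69) and Tnip2 (0.68).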

How the data were processed

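Microglial RNA of 30 libraries, 3 in each of 10 groups, was analysed from a table of TPM that the authors deposited. The authors made non-stranded poly(A) libraries, mapped the single-end reads to mm10 with Rsubread, and assigned them with featureCounts to a UCSC annotation, as the methods and the submitters' processing notes state. The formula of the TPM is not given in the sources used here. The deposited TPM sum to 995495 to 998012 per library and hold no read totals. From the steps between low values, 1 read on a transcript of 1000 bases was estimated to be worth 0.211 to 0.354 TPM, an approximation, since 68% to 74.5% of low values lay within 0.2 of a whole read, where 40% would by chance. Because TPM are not counts, no count model was fitted.

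In R 4.3.3, limma 3.58.1 was fitted to log2(TPM + 1) of all 14225 rows and all 10 groups, with moderation along a mean-variance trend. The 12 contrasts were adjusted by Benjamini-Hochberg over all rows at 0.05. Fold changes on this scale understate changes of genes near 0 TPM. Simulated data with known changes were used to test the fit. Members and lists were chosen with earlier results of these data known. Named beside the members are, per contrast, at most 3 rises and 3 falls of the other purine genes, the largest among those that passed without overlap, and for each member with a mean of at least 1 TPM the 3 rows of most similar profile. P2ry12 and P2ry13 over age, Cd38, Alpl and Slc29a1, single marker genes and the relations of members with marker sums were chosen after their values were seen. Correlations with marker sums used deviations from group means and 100000 permutations within groups, two-sided. The microglial sum uses 6 markers, and 1 further marker is not reported here. Exon overlaps are from GENCODE M21 (mm10), and coordinates and promoter windows from RefSeq (GRCm38.p6). All 7 genes matched by symbol, and windows were found for Nt5e, Entpd1, Adora3, P2rx7 and Adora1. Python 3.11.15 with matplotlib 3.10.9 made the figures.

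Alternatives tried were adding 0.1 in place of 1, keeping rows with a mean TPM of 1 or more, quantile normalization or median-ratio scaling, a block for the replicate number, fitting only the groups compared, no trend, Xist or marker sums as a covariate, and each library left out. The covariates of border macrophages, neutrophils and monocytes, endothelial cells and astrocytes, and the fit of Xist-high libraries, were added after seeing the data.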

Additional observations from a re-analysis of the deposited data

Results flagged for a closer look

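The effect of repopulation differed between MIA and Saline offspring, by a test of the difference itself, for 3 members and 6 other purine rows. The differences, MIA minus Saline offspring on the log2 scale, were -3.20 for Nt5e, 0.87 for Entpd1 and 1.71 for Adora3. They were 2.08 for P2ry12, 1.83 for P2ry13 and 1.00 for P2rx1, and -1.86 for Dck, -1.66 for Aprt and -0.63 for Slc28a2. Slc28a2 was low throughout, with 0.50 to 1.60 TPM in the P60 libraries. Each difference rests on the same 3 Saline MG-REP libraries. All 3 were high in Xist, as were the MIA MG-REP libraries, while CTRL libraries 2 and 3 of each group were high in Y-linked genes. MG-REP and CTRL thus differed in sex in both kinds of offspring, and the part of sex in these differences was not tested further.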

How the results depend on the processing

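Of 431 recomputed values for the 20 member changes that passed, 402 kept their direction and passed, 28 kept their direction and did not pass, and 1 changed sign. That was Adora1 from E17 to P60, at -0.52 with the astrocyte sum as a covariate (adjusted p = 0.287), where the astrocyte sums of E17 overlap no later age. No member passed for MIA against Saline at the 4 ages under any alternative run. The count least stable was that from E17 to P7, with 2 members. It was 1 with a pseudocount of 0.1, with the filter on low values (which drops P2rx7 NM_001284402 from the test), with either scaling and with Xist as a covariate, 0 with only the groups compared, 4 with the markers of other brain cells and 5 with the astrocyte sum as covariates, and 1 to 3 without 1 library each. From P20 to P60 the count of 0 became 1 with only the groups compared and 3 with the markers of other brain cells, and was 0 to 1 without 1 library each (P2ry6, -0.50, adjusted p = 0.0479 without MIA CTRL library 3). Over all rows, 1535 passed from E17 to P7 in the main fit, 1417 after median-ratio scaling and 1683 after quantile normalization. Counts of all rows for these steps are not given here for the covariates, the smaller fits or the omitted libraries. Whether the member counts only followed those of all rows in such settings was therefore not tested. The cause of the changed counts was not tested either. For repopulation, Entpd1 did not pass under quantile normalization in Saline offspring (-0.69, adjusted p = 0.0502) or between MIA and Saline among MG-REP (0.56, adjusted p = 0.128).

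Samples shared only a replicate number: 12 of 27 same-numbered pairs had deviations with a correlation over 0.1 (range -0.53 to 0.66). With the replicate number as a block, 1 member passed from E17 to P7, and P2rx7 NM_001284402 did not pass from E17 to P60 (0.50, adjusted p = 0.0916). This P2rx7 change from E17 to P60 did not pass in 2 of 22 other settings or library sets in all. Over all rows, 3805 passed for MG-REP against CTRL in Saline offspring and 2460 without Saline MG-REP library 1, 1911 with only the groups compared and 1886 with only Xist-high libraries. From P20 to P60, 35.5% of the rows that passed were higher, against 49.4% after median-ratio scaling. Depth limits low levels and short transcripts most, and reads per member were not estimated.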
